A study of Mus musculus with 2 samples.

Results

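The interferon-inducible GTPases are proteins that cells make after exposure to interferon and that bind and hydrolyse GTP. The genes described were Gbp2, Gbp3, Gbp4, Gbp5, Gbp6 and Gbp7, which encode guanylate-binding proteins, and Igtp, Irgm1, Irgm2 and Iigp1, which encode immunity-related GTPases. They are 10 of the 15644 genes listed for the tumor library and of the 17641 listed for the normal library, and all 10 were found in each. The members were given by name, with no measured level in the rule, but were chosen with earlier results of these data known. Their mRNA was followed in single endothelial cells (ECs) that each had a Cdh5 or Pecam1 UMI (a UMI marks 1 captured RNA molecule). Cells with Ptprc, Myh11, Epcam or Cspg4 were left out, and tumor cells were set aside unless Cdh5 and Pecam1 outnumbered Rhox5, Hmga2 and Krt8, genes of the cancer cells.

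Both GTPase families act inside the cell, where they assemble on the vacuoles of intracellular pathogens and on damaged membranes. Guanylate-binding proteins are large GTPases that form coats on such membranes, while among the immunity-related GTPases Igtp, Irgm1 and Irgm2 (the GMS class) regulate the others and Iigp1 (the GKS class) is an effector that loads onto the vacuole. Interferon-gamma (type II) signals through the receptor chains Ifngr1 and Ifngr2 and the kinases Jak1 and Jak2 to the GAS element, whereas type I interferons signal through a complex with Stat2 and Irf9 to the ISRE element. The Ifit genes, whose products bind foreign RNA, are classical type I targets, and many genes answer to both interferons.

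Tumor endothelial cells (TECs) came from pooled E0771 mammary tumors grown orthotopically, E0771 being a mouse mammary carcinoma line. Normal endothelial cells (NECs) came from pooled normal mammary glands. The study's methods give female mice of 8 weeks on a C57BL/6 background throughout, and the label of the normal sample gives C57BL/6 and 6 to 8 weeks. The tissue and cell type fields of the normal sample name E0771 and TECs, and it was read as normal from its title and the series design. Both suspensions were digested with collagenase for sorting of CD45-/CD31+ cells, and 1 library was made for each condition. Every interval below is a 95% interval of counting error within 1 library, no difference between conditions had a replicate check, and no test was run.

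The rule kept 261 of the 704 tumor barcodes as TECs and 4940 of the 9047 normal barcodes as NECs. TECs held a median of 16989 UMIs per cell (4646103 in all) and NECs a median of 2976.5 (17327221 in all). No kept barcode was shared by the tables. Endothelial markers outside the selection ranged from Egfl7, in 99.2% of TECs and 94.8% of NECs, to Tek, in 51.7% and 43.8%. Emcn was in 92.3% and 80.1%, and these shares were taken at unequal depth. Of 8 T or NK cell markers 6 were at 0 UMIs in TECs and 4 in NECs, and the list summed to 0.430 and 0.462 CPM (UMIs per 1000000 UMIs of the same cells). The 8 myeloid markers summed to 21.5 and 17.1 CPM. Ifng, which encodes interferon-gamma, had 0 UMIs in TECs and was not listed in the normal table.

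The promoters are shown first, since they carry the elements through which the 2 interferon types act. RefSeq (GRCm38.p6) gave 8 windows for 7 of the 10 members, each from 250 bases before to 50 bases after the start site; Gbp4, Gbp6 and Iigp1 had none there. In the annotation of the same build the genes lie in families: Gbp5, Gbp7, Gbp3 and Gbp2 close together on the plus strand of chromosome 3 (142493978 to 142638008), Gbp4 and Gbp6 on the minus strand of chromosome 5 and Irgm1, Igtp and Irgm2 on chromosome 11. The letters searched were TTCNNNGAA for GAS, which reads alike on both strands, and, on either strand, GAAA followed after any 2 bases by GAAA for ISRE. Of 32851 windows of all genes, 8.30% held the GAS letters, 3.44% the ISRE letters and 0.454% both. All 7 members had a window with ISRE letters, and 4 of them (Gbp5, Gbp7, Igtp and Irgm2) had GAS letters as well. A match is a description of letters and not a shown binding site.

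Gbp2 (chr3:142620543-142620662, plus strand) and Gbp3 (chr3:142559924-142560043, plus strand) had ISRE letters without GAS letters. The bases before the start site are printed, with matched letters in capitals. In Gbp3 the 2 ISRE matches overlap and appear as 1 run.
Gbp2: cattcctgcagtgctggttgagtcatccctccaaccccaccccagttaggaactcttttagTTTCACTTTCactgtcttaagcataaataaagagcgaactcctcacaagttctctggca
Gbp3: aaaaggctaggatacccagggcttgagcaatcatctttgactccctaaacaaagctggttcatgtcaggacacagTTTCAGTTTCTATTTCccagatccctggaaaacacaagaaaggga

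Gbp5 (chr3:142496684-142496933, plus strand) and Gbp7 (chr3:142530216-142530335, plus strand) each had 2 GAS matches and 1 ISRE match. Gbp5 is printed over 250 bases because its first matches lie 245 and 165 bases before the start site.
Gbp5: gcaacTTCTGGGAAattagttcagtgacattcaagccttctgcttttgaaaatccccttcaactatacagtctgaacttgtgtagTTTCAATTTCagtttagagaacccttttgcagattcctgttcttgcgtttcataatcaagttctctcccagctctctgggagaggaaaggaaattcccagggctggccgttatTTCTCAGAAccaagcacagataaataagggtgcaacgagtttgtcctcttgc
Gbp7: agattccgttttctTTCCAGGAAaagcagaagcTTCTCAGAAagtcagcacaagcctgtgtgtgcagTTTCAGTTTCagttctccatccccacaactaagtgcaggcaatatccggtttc

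Irgm1 (chr11:48871421-48871540, minus strand) had 2 overlapping ISRE matches that began 30 and 24 bases before the start site. Igtp (chr11:58199436-58199555, plus strand) and Irgm2 (chr11:58214857-58214976, plus strand) each carried a GAS match followed by an ISRE match. Their windows are the pair most alike among the members: at an offset of 30 bases, 184 of 270 bases (68.1%) were identical. The ISRE letters were the same, and the GAS letters differed by 1 base, T4C, counted from 1 at the 5' end of the Igtp match.
Irgm1: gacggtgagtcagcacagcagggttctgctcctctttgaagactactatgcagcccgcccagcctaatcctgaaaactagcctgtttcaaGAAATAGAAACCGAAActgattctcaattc
Igtp: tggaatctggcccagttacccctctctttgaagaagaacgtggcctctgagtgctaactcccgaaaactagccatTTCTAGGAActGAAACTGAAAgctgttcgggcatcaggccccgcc
Irgm2: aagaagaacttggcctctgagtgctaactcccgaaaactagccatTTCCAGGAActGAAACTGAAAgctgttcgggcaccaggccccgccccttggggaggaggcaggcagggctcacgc

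For comparison with the type I genes, Ifit1 (chr19:34640769-34640888, plus strand) had 2 ISRE matches and no GAS match. Of the 6 Ifit genes with a window, 5 had ISRE letters and 1 (Ifit2) had GAS letters only.
Ifit1: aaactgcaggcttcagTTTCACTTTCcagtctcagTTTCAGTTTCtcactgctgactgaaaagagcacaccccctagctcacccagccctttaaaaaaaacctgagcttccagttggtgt

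TECs held more guanylate-binding protein mRNA than NECs. Gbp2, whose product coats pathogen vacuoles, was at 459 CPM in TECs and 118 CPM in NECs (2131 and 2045 UMIs), a log2 ratio of 1.96 (1.87 to 2.05) and the highest of the 10 members. Gbp3 was at 226 and 84.5 CPM, with a log2 ratio of 1.42 (1.31 to 1.54). Gbp4 was at 315 and 175 CPM, a log2 ratio of 0.85 (0.76 to 0.94). The less abundant Gbp5, linked to inflammasome assembly, was at 72.3 and 50.9 CPM (0.51, 0.32 to 0.69). Gbp7 differed least of the 6, at 273 and 225 CPM, with a log2 ratio of 0.28 (0.18 to 0.37). Gbp6 was the lowest member in both libraries, at 28.8 and 15.6 CPM (0.89, 0.58 to 1.19). Of the 60-base words of the Gbp6 transcript 57.8% also occur in other genes, Gm43302 and Gbp10 among them, so its count is uncertain.

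The immunity-related GTPases did not move together. Igtp was at 220 CPM in TECs and 85.6 CPM in NECs, with a log2 ratio of 1.36 (1.24 to 1.48). Irgm1, a regulator of the effector GTPases and of autophagy, was at 275 and 122 CPM (1.17, 1.07 to 1.27). Irgm2 was at 43.7 and 46.6 CPM, and its log2 ratio of -0.09 had an interval that held 0 (-0.32 to 0.13). Igtp and Irgm2, whose promoters look alike, therefore stood at opposite ends of the regulators. They also overlap in the GENCODE M21 annotation, in which Irgm2 (chr11:58199618-58222782) begins inside Igtp (chr11:58199556-58207591), and 10.6% of the 60-base words of Igtp occur in Irgm2. The Irgm2 promoter printed above (chr11:58214857-58214976) belongs to a RefSeq start site further downstream. The last bases of that window were found in no GENCODE transcript of Irgm2, so its start site is uncertain. How reads in the shared stretch were assigned is not given in the sources used here.

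Iigp1, the GKS effector and the member with the most UMIs, went the other way. It was at 636 CPM in TECs and 802 CPM in NECs, a log2 ratio of -0.33 (-0.39 to -0.28). Iigp1 gave 2956 of the 11845 GTPase UMIs in TECs and 13904 of 29908 (46.5%) in NECs. The 10 genes together were at 2549 and 1726 CPM, a log2 ratio of 0.56 (0.53 to 0.59), which rose to 1.05 (1.01 to 1.09) when Iigp1 was left out of the sum. The plot of the 10 levels shows both the gap for Gbp2 and the reversed order for Iigp1.

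**Figure D1:**
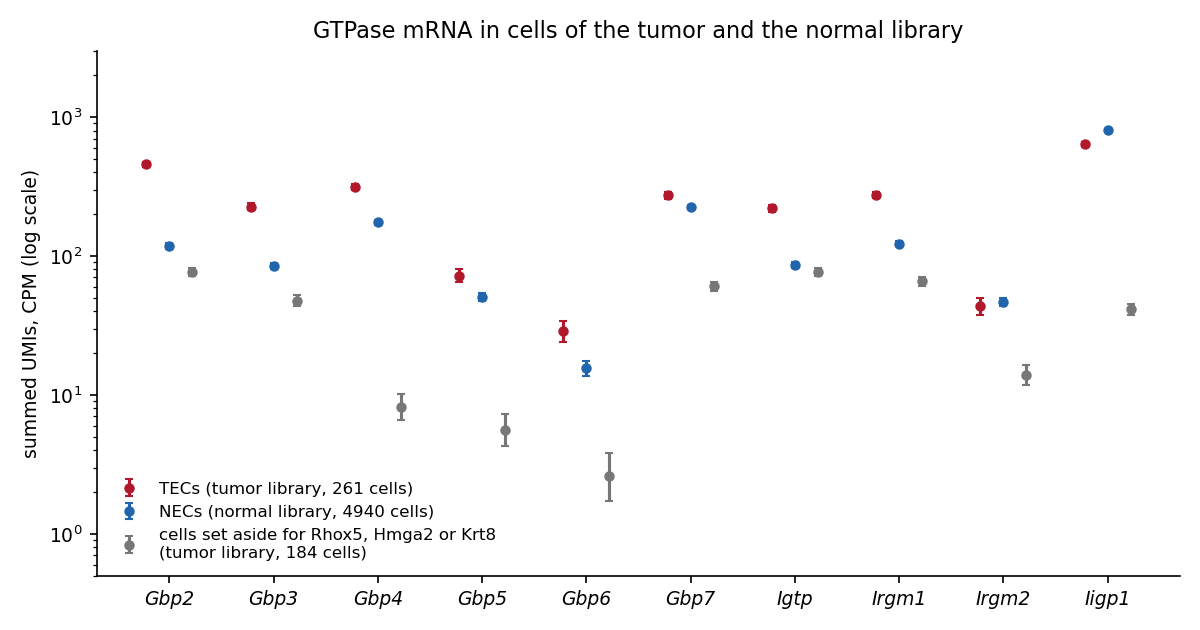
Summed UMIs of each GTPase in CPM (log axis) in TECs (red), NECs (blue) and the 184 cells of the tumor library set aside for Rhox5, Hmga2 or Krt8 (grey); points are 1 library each and bars are 95% Poisson intervals. Gbp2 lies at 459 CPM in TECs against 118 in NECs, Iigp1 at 636 against 802, and the grey points lie below both libraries' endothelial cells for all 10 genes, nearest for Igtp at 76.6 against 85.6 CPM in NECs.

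Of the 10 members, 4 (Gbp2, Gbp3, Igtp and Irgm1) were at 2-fold or more in TECs over NECs and none at 2-fold or more in NECs. Among 12230 genes with 20 or more UMIs, 10.8% were 2-fold or more higher in TECs and 24.5% lower. Since the members were chosen with earlier results of these data known, their count beside these shares is a description. The median log2 ratio was 0.87 over the members and -0.23 over all 12230 genes. Set against that all-gene median, Irgm2 turned to 0.14 (-0.09 to 0.36), Iigp1 was at -0.10 (-0.16 to -0.05) and the other 8 members kept their sign.

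TECs also carried more members per cell when depth was equalised. Cells were thinned to 2000 UMIs, which kept 238 TECs and 3726 NECs and left out 23 and 1214 shallower cells. A median of 3 of the 10 members was then detected in a TEC and of 2 in an NEC. At least 4 members were seen in 41.2% of TECs (98 of 238) and in 15.6% of NECs (582 of 3726). Gbp2 was detected in 42.9% (36.5 to 49.4) of thinned TECs and 19.1% (17.9 to 20.4) of thinned NECs. Without thinning these shares were 81.6% and 26.8%. For Iigp1 the intervals of the thinned shares overlapped (48.5 to 61.5% of TECs and 48.3 to 51.6% of NECs). In the other cells, Gbp2 was detected at the same depth in 13.5% of 170 tumor cells set aside for Rhox5, Hmga2 or Krt8. It was detected in 4.11% of 681 normal cells with an Epcam UMI, and Iigp1 in 4.71% and 12.9% of these sets. Before thinning and with shallower cells included (184 and 698 cells), the sets had medians of 51745 and 10806 UMIs.

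Within the normal library Iigp1 and Irgm1 split by cell state. NECs formed 17 clusters with the interferon genes left out of the clustering. In 7 clusters (1791 cells) the 15 immediate early genes, such as Fos, Egr1 and Fosb, which switch on within minutes of a stimulus, summed to 20669 CPM or more. In the other 10 clusters (3149 cells) they stayed at 7749 CPM or less. The 4 clusters of TECs were all low, from 2944 to 5894 CPM. The heat shock genes moved along in part, at 6191 CPM in the 7 high clusters against 3316 CPM in the 10 low ones and 3803 CPM in TECs. The high clusters were also somewhat deeper, with a median of 3598 UMIs per cell against 2614. The part of the immediate early and heat shock response in the levels of Iigp1, Irgm1 and Ifit1 was not tested, and whether it arose in the tissue or during dissociation and sorting cannot be told apart with these cells.

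Iigp1 followed the immediate early level closely. It was at 350 CPM (338 to 362) in the low clusters and 1403 CPM (1376 to 1430) in the high ones, a log2 difference of 2.00 (1.95 to 2.06). Irgm1 was at 69.6 and 192 CPM, a log2 difference of 1.47 (1.34 to 1.60). Gbp6, at 10.8 and 21.9 CPM, and Igtp, at 62.5 and 116 CPM, differed by 1.01 (0.65 to 1.38) and 0.90 (0.75 to 1.05). With all vessel types pooled the others hardly differed: Gbp2 by 0.19, Gbp3 by 0.11, Gbp4 by 0.06, Gbp7 by 0.04 and Irgm2 by 0.01. Gbp5 was at 0.28 (0.09 to 0.48). Thus 3 of 10 members (Iigp1, Irgm1 and Gbp6) were 2-fold or more higher in the high clusters, where 5.35% of 11893 genes were higher and 7.27% lower by that rule. The median log2 difference was 0.24 over the members and -0.21 over all those genes.

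**Figure D2:**
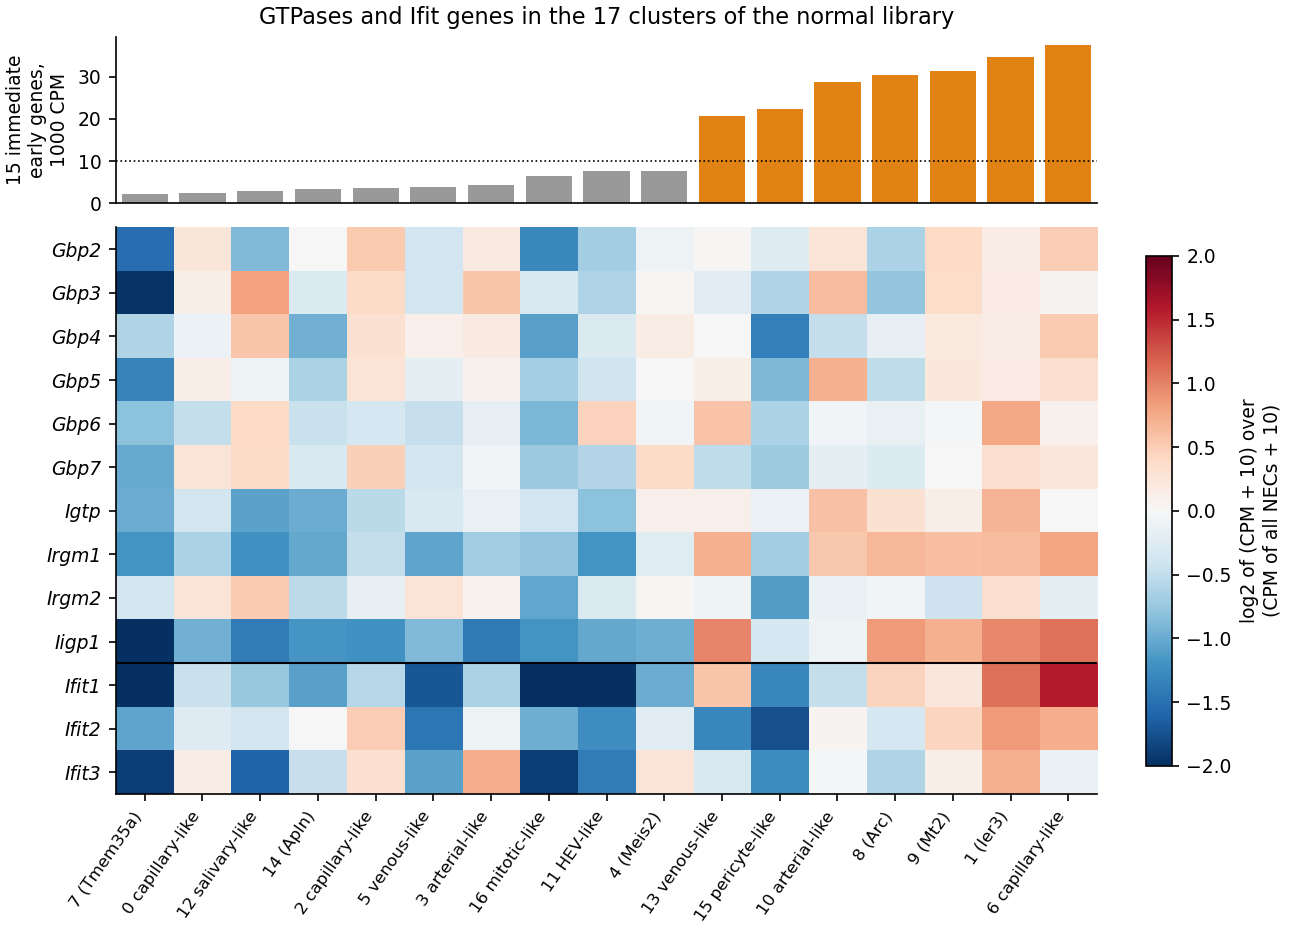
The 17 clusters of NECs, ordered by the summed level of 15 immediate early genes (upper bars, in units of 1000 CPM, orange for the 7 clusters above the dotted line at 10000 CPM), with each GTPase and Ifit gene below as the log2 of its CPM + 10 over that of all NECs. Unnamed clusters carry their leading gene in brackets. Iigp1 lies above its level in all NECs (red) in 5 of the 7 high clusters and Irgm1 in 6, neither in any of the 10 low ones, and cluster 7 is blue for all 10 members.

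The same contrast was seen inside like vessel profiles. Each of 6 high clusters of 50 or more cells was set against the low cluster whose other genes were most alike (r from 0.27 to 0.47 over 7842 genes). Iigp1 was higher in the high cluster of 6 of 6 pairs, by 3.90-fold in the median pair and by 2.53 to 9.61-fold across pairs. In capillary-like cells it went from 406 CPM (cluster 0) to 1723 CPM (cluster 6, which was led by Hspa1a, Hspa1b and Atf3). In venous-like cells it went from 432 CPM (cluster 5) to 1597 CPM (cluster 13, led by Sele and Selp), and in arterial-like cells from 296 CPM (cluster 3) to 748 CPM (cluster 10). Irgm1 was higher in 6 of 6 pairs by a median of 2.71-fold (1.90 to 4.18). Its low clusters ranged from 48.0 to 103 CPM and its high ones from 183 to 218 CPM, so the 2 sets did not overlap. Gbp2 and Gbp5 each had an interval above 0 in 2 of 6 pairs and Gbp3 in 1. Gbp4 had one in 2, with 1 lower, and Gbp7 in 1, with 1 lower. From cluster 7 to cluster 8, Gbp3 rose 3.12-fold, Gbp5 2.29-fold and Gbp2 2.10-fold. Igtp was higher in 4 of 6 pairs and Gbp6 in 3, while Irgm2 was neither higher nor lower in any. Over the pairs 3 of 10 members had a median of 2-fold or more, and so did 4.29% of 7549 genes in that direction and 1.97% in the other.

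**Figure D3:**
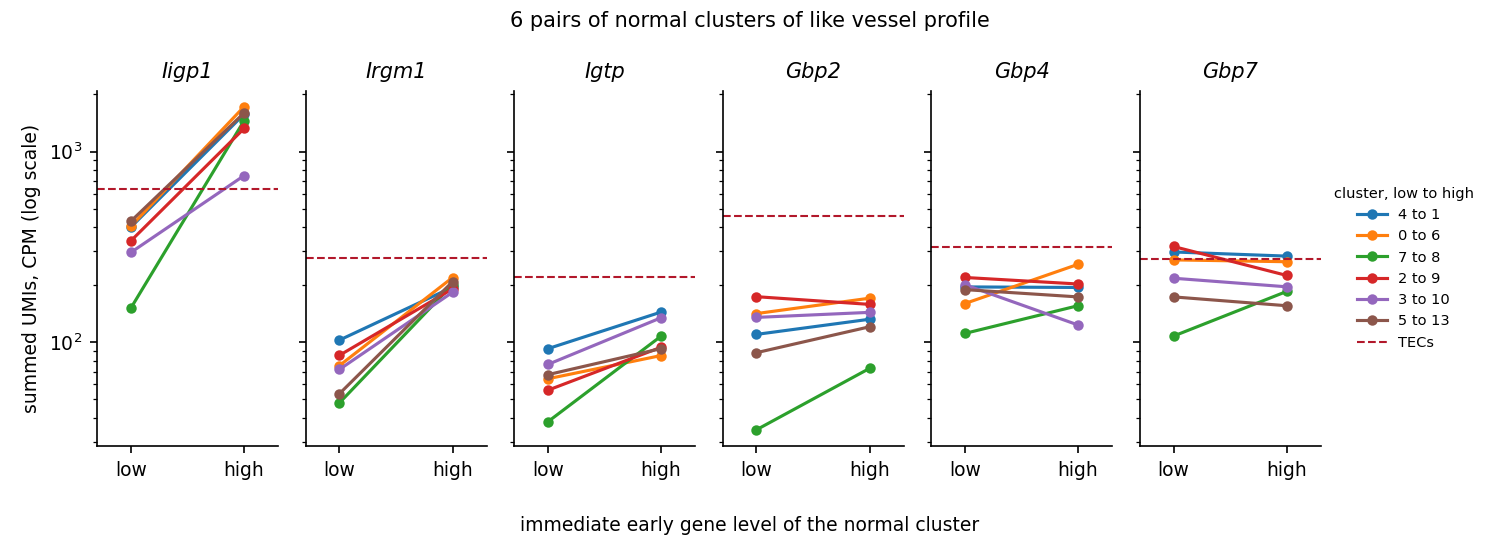
CPM (log axis) of 6 GTPases in 6 pairs of normal clusters, each line joining the cluster low in immediate early genes to the high cluster of like vessel profile; the dashed line is the level in all TECs. Every line climbs for Iigp1 and Irgm1, the low and high points of Gbp2 and Gbp7 mix, and TECs lie above all 12 clusters for Irgm1, Igtp, Gbp2 and Gbp4.

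Genes of the pathway were read in the same pairs. Irf1, a transcription factor that acts on many GTPase promoters, was higher in 6 of 6 pairs by a median of 6.99-fold, and Socs1, a feedback inhibitor of Jak kinases, by 5.71-fold. The 10 genes most like the summed GTPases over the 15 normal clusters of 50 or more cells were Dusp1, Wsb1, Kdm6b, Mxd1, Btg2, Zcchc6, Csnk1d, Fosb, Fzd5 and Zfp36 (r from 0.89 to 0.86 on the log2 scale). That sum is led by Iigp1. For the sum without Iigp1 they were Akap2, AC160336.1, 9930021J03Rik, Crebrf, Ythdc1, Pknox1, Elf4, Klf9, Dusp1 and Kdm2b (r from 0.90 to 0.80), with Dusp1 alone in both lists. Interferon genes were left out of both lists. The correlation of the sum with the immediate early genes was 0.86 with Iigp1 and 0.55 without it. With the summed Ifit genes it was 0.87 with Iigp1 and 0.85 without it. These clusters share 1 library.

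With the high clusters left out of the NECs, the order of TECs and NECs turned for Iigp1. It was then at 350 CPM in NECs against 636 CPM in TECs, a log2 ratio of 0.86 (0.79 to 0.93) in place of -0.33. Irgm1 went from 1.17 to 1.98 (1.85 to 2.12), Igtp from 1.36 to 1.82 (1.67 to 1.96) and Gbp6 from 0.89 to 1.41 (1.04 to 1.79). Gbp2 was at 2.04, Gbp3 at 1.47, Gbp4 at 0.88, Gbp5 at 0.63, Gbp7 at 0.29 and Irgm2 at -0.09, each inside the interval of its first value. By this set of NECs 5 of 10 members (Gbp2, Gbp3, Gbp6, Igtp and Irgm1) were 2-fold or more higher in TECs, where 10.2% of 11697 genes were higher and 23.3% lower. The median was 1.15 over the members and -0.26 over those genes. The summed log2 ratio rose from 0.56 to 1.12 (1.08 to 1.16). Against the high clusters alone, which summed to 2460 CPM, it was 0.05 (0.02 to 0.09). This set of NECs was chosen after the data had been seen. All TECs were kept, also those highest in immediate early genes.

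**Figure D4:**
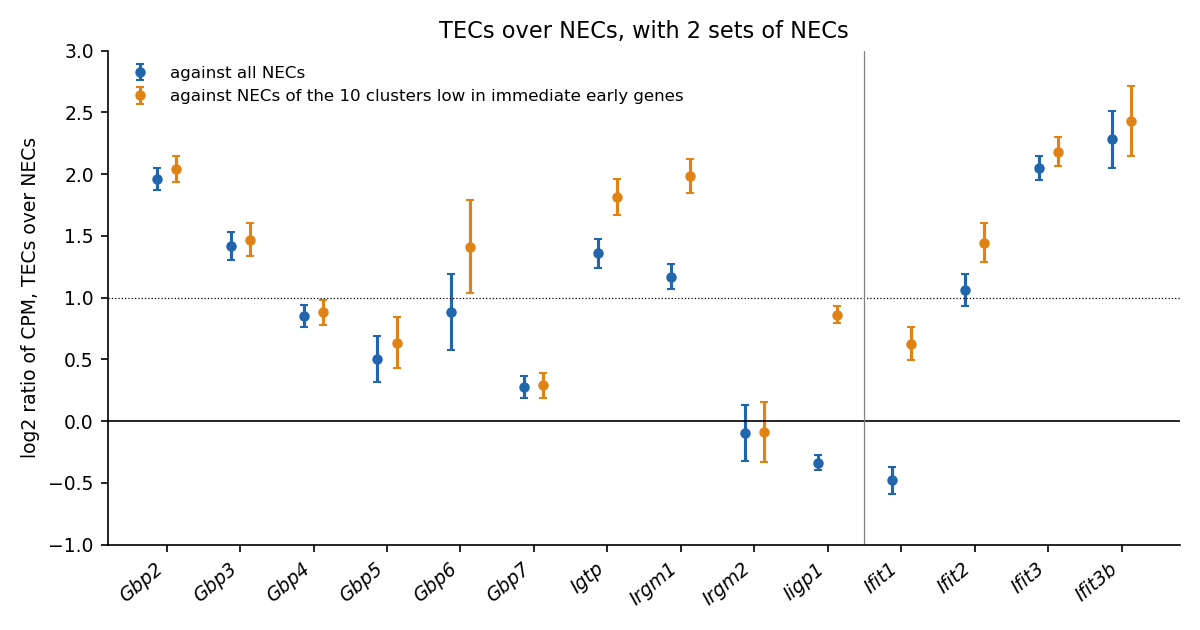
Log2 ratio of CPM in TECs over NECs for the 10 GTPases and 4 Ifit genes, against all NECs (blue) and against the 10 normal clusters low in immediate early genes (orange); bars are 95% intervals of counting error, the solid line is no difference and the dotted line 2-fold. Iigp1 moves from -0.33 to 0.86 and Ifit1 from -0.48 to 0.63, while Gbp2, Gbp3, Gbp4, Gbp7 and Irgm2 stay in place.

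Vessel types were then set side by side. Summed GTPases were at 1696 CPM (1656 to 1736) in capillary-like, 1552 CPM (1499 to 1607) in venous-like, 1468 CPM (1418 to 1519) in arterial-like and 989 CPM (921 to 1061) in high endothelial venule (HEV)-like cells. The intervals of venous-like and arterial-like cells overlapped and those of the other neighbours in that order did not. Of these types all but the HEV-like cells contained a high cluster. Among low clusters alone, capillary-like cells were at 1332 and 1418 CPM (clusters 0 and 2), arterial-like at 1241, venous-like at 1176 and HEV-like at 989 CPM. Gbp2 was highest in capillary-like cluster 2 (173 CPM), and Gbp3 was at 128 CPM in arterial-like cluster 3. The lowest cluster of all was the unnamed cluster 7, led by Tmem35a, Pacsin1 and Penk, at 558 CPM. It held the lowest level of 6 of the 10 members among the 15 clusters of 50 or more cells, with Gbp2 at 34.7 CPM and Iigp1 at 151 CPM. Its high partner, cluster 8, which shares Penk and Pacsin1, was at 2309 CPM, with Iigp1 at 1453 CPM and Gbp2 at 72.8 CPM.

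Clusters named for other cell types were small. The 93 salivary-like cells were at 1294 CPM and the 45 pericyte-like cells at 1162 CPM, both below the 1726 CPM of all NECs. Leaving both out gave a log2 ratio of 0.55 for TECs over NECs in place of 0.56. Salivary markers, such as Bpifa2 and Smr3a, summed to 2065 CPM over all NECs and to 0 CPM in TECs. With salivary and mitochondrial genes left out of the UMI totals the log2 ratio was also 0.55 (0.52 to 0.59). The source of the salivary mRNA was not tested.

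TECs fell into 4 clusters that also differed in the members. Cluster 0 (87 cells), led by Tmem255b, Ptprr and Slc52a3, was highest with 3346 CPM. It held 6 arterial markers, none of them among its 10 leading genes, and stayed unnamed. The 58 tip-like cells were named by 5 markers of sprouting tips (Apln, Pgf, Adm, Cxcr4 and Kcne3). Esm1, Angpt2, Nid2, Dll4, Unc5b and Lamb1 of the same list did not pass the naming rule. These tip-like cells were at 2549 CPM, and the 58 mitotic-like cells at 1936 CPM. The unnamed cluster 3 of 58 shallow cells (median 2208.5 UMIs, led by Gm26917) was at 1766 CPM. Cluster 0 was chosen here as the highest in the sum of these members, so its values are a description. All 10 members were higher in cluster 0 than in mitotic-like cells, from a log2 ratio of 0.42 (0.20 to 0.63) for Gbp3 to 1.45 (0.79 to 2.16) for Gbp6. Irgm2 was at 1.08, Gbp2 at 1.03, Igtp at 0.89, Iigp1 at 0.86 and Irgm1 at 0.59. By the same rule of any higher value, 52.2% of 8839 genes were higher in cluster 0. Iigp1 was at 896 and 495 CPM, and Irgm2 was at 60.1 and 28.5 CPM. Gbp2 was as high in tip-like cells (574 CPM) as in cluster 0 (575 CPM), whereas Igtp was lower in tip-like cells (195 against 311 CPM).

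**Figure D5:**
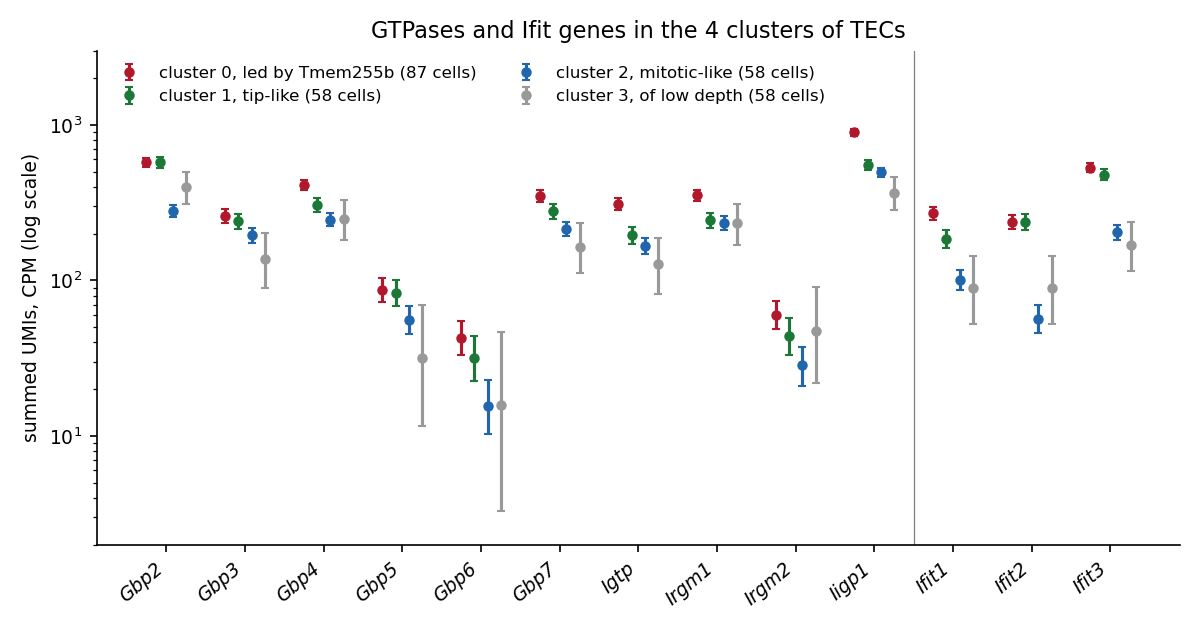
CPM (log axis) of each GTPase and 3 Ifit genes in the 4 clusters of TECs, with 95% Poisson intervals. Cluster 0 (red) lies above mitotic-like cells (blue) for all 10 GTPases and the 3 Ifit genes, such as Ifit2 at 238 against 56.9 CPM.

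Type II and type I responses were then compared through the GTPases and the Ifit genes. The GTPase sum is not specific to type II: all 7 members with a promoter window held ISRE letters and 4 held GAS letters. The 6 Ifit genes summed to 810 CPM in TECs and 436 CPM in NECs, a log2 ratio of 0.89 (0.84 to 0.95), above the 0.56 of the GTPases. There were 3.15 GTPase UMIs for each Ifit UMI in TECs and 3.96 in NECs, a log2 ratio of -0.33 (-0.40 to -0.27). In cells thinned to 2000 UMIs it was -0.11, with an interval that held 0 (-0.28 to 0.07). The value depended on the genes in each sum. Without Iigp1 it was 0.16 (0.09 to 0.22), without Ifit1 -1.19 (-1.26 to -1.11), and without both it was -0.70 (-0.78 to -0.62), at 3.03 GTPase UMIs for each Ifit UMI in TECs and 4.91 in NECs. With all genes kept and the high clusters left out of the NECs it was -0.44 (-0.52 to -0.36), against 4.27 GTPase UMIs for each Ifit UMI.

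The Ifit genes were themselves split. Ifit3 was at 381 CPM in TECs and 92.0 CPM in NECs (2.05, 1.95 to 2.15), Ifit3b at 78.6 and 16.2 CPM (2.28, 2.05 to 2.51) and Ifit2 at 165 and 79.0 CPM (1.06, 0.93 to 1.19). Ifit3 and Ifit3b share 47.0% of the 60-base words of Ifit3, so the 2 counts are not separate evidence. Ifit1 was lower in TECs, at 178 and 248 CPM, with a log2 ratio of -0.48 (-0.59 to -0.37). Like Iigp1 it was higher in the high normal clusters, at a log2 difference of 1.88, and its ratio turned to 0.63 (0.50 to 0.76) once they were left out. Ifit1 made up 56.8% of the Ifit UMIs in NECs and 827 of 3764 in TECs. Among the members and the Ifit genes, Iigp1 and Ifit1 were thus the genes whose order turned. Socs1, outside both lists, turned as well, from -1.51 to 0.33.

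Detection of GTPase and Ifit mRNA in the same cell was read at equal depth. In thinned TECs a GTPase UMI was found in 92.7% of the cells with an Ifit UMI and in 80.5% of those without. The same shares in thinned NECs were 92.4% and 78.3%. Both kinds were detected in 42.9% (36.5 to 49.4) of TECs and 31.9% (30.4 to 33.4) of NECs, and an Ifit UMI without a GTPase UMI in 3.36% and 2.63%.

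Other genes of both responses were mostly higher in TECs. Of 17 other type II genes 13 were at 2-fold or more in TECs and 2 (Irf1 and Socs1) at 2-fold or more in NECs, with a median of 2.10. Cxcl9, a chemokine for CXCR3-bearing T cells, was at 2123 and 165 CPM, and H2-Ab1 and Cd74, of antigen presentation by MHC class II, had log2 ratios of 3.73 and 3.28. Irf1 was at 130 CPM in TECs and 609 CPM in NECs (-2.23) and Socs1 at 27.6 and 78.4 CPM (-1.51). Against the low clusters alone they were at -0.40 and 0.33, and 11 of 17 genes were 2-fold or more higher with none lower. Of 23 other type I genes counted, 14 were 2-fold or more higher in TECs and none in NECs, with a median of 1.38.

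Receptors and signal carriers were less uniform. Ifngr2 was at 113 CPM in TECs and 33.5 CPM in NECs, a log2 ratio of 1.75 (1.57 to 1.92), whereas Ifngr1, the ligand-binding chain, was at 120 and 230 CPM (-0.94, -1.07 to -0.81). Stat2 and Irf9, of type I signalling, were at log2 ratios of -0.31 and -0.52, beside -0.23 for the median gene.

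Related GTPases outside the list varied as well. Gbp10 (27 and 9 UMIs) shares 79.5% of its 60-base words with other genes and was left out. Of the other 10 counted, 3 were at 2-fold or more in TECs and none in NECs, with a median of 0.28. Gm4951, a relative of Iigp1, was at 105 CPM in TECs and 26.0 CPM in NECs (2.01, 1.82 to 2.20), opposite to Iigp1 itself, and differed by only 0.02 between high and low normal clusters. Tgtp1 and Tgtp2 were nearer to Iigp1, at 1.37 (1.03 to 1.72) and 1.13 (0.85 to 1.42) between those clusters. Their log2 ratios of TECs over NECs were -0.27 (-0.66 to 0.11) and 0.04 (-0.26 to 0.33), and 0.48 and 0.63 against the low clusters alone. Of 9 related genes counted, 2 were 2-fold or more higher in the high clusters and none lower, beside 5.35% and 7.27% of 11893 genes. Ifi47, another immunity-related GTPase, was at 224 and 115 CPM (0.96, 0.85 to 1.07). Gbp9 was at 78.6 and 89.3 CPM (-0.19, -0.35 to -0.02).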

How the data were processed

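Sorted cells of 1 tumor and 1 normal library were run on the 10x Genomics platform. The authors deposited counts, 1 table of UMIs per gene and cell for each library, made with Cell Ranger and Seurat on mm10 per the submitters' processing notes. Their reporting summary gives Seurat 4.0; the Cell Ranger version and the gene annotation are not given in the sources used here. Cells had at least 200 genes, under 10% mitochondrial UMIs, no UMI of Ptprc, Myh11, Epcam or Cspg4, at least 1 of Cdh5 or Pecam1, and, in the tumor table, more of Cdh5 and Pecam1 than of Rhox5, Hmga2 and Krt8. Doublets were not removed; deeply sequenced cells were left out as an alternative.

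Counts were summed over cells and divided by all UMIs of those cells (CPM). CPM have Poisson intervals, ratios exact conditional intervals and shares Clopper-Pearson intervals, at 95%, for counting error only. A gene entered a count of 2-fold changes with 20 UMIs or more over both sets (200 for the pairs). The tumor library held more UMIs per cell, so detection shares were taken after thinning to 2000 UMIs. With 1 library per group no test was possible. Clusters were made with Seurat 5.3.0 in R 4.3.3 (LogNormalize, 4000 variable genes without the interferon lists, 20 principal components, 20 neighbours, resolution 0.8). A cluster was named when 3 or more genes of a marker list were in 25% of its cells at 2-fold or more, with 1 among its 10 leading genes, and more than of any other list. Gene positions are from GENCODE M21 (GRCm38, the build of mm10). Ratios and intervals were tested on simulated data; Python was 3.11.15 and scipy 1.17.1.

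The members and gene lists were chosen with earlier results of these data known. Named were the 10 members, genes of the lists, leading genes of clusters and the 10 genes most like the members over normal clusters (log2 of CPM + 10, 200 UMIs or more, interferon genes left out). The immediate early and heat shock lists, the limit of 10000 CPM and the pairs of clusters were chosen after the data had been seen. Alternatives changed scaling, cell rules, depth and clustering. Protein motifs of the members were not analysed here, and some results on pathway genes are not reported here.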

Additional observations from a re-analysis of the deposited data

Results flagged for a closer look

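GTPase mRNA was also found in cells outside the endothelial comparison, above the limit that a count of 0 allows (0.290 and 0.323 CPM, for 3 counts). The 184 cells of the tumor library set aside for Rhox5, Hmga2 or Krt8 held 399 CPM of the summed members (386 to 411), which is 15.6% of the level in TECs. The 8 endothelial markers other than Cdh5 and Pecam1, which entered the choice of cells, were at 0.975% of their level in TECs, and the members ranged from 2.61% for Gbp4 and 6.50% for Iigp1 to 31.9% for Irgm2 and 34.8% for Igtp. The 698 cells of the normal library with an Epcam UMI and without a Cdh5 or Pecam1 UMI held 157 CPM (149 to 165), or 9.10% of the level in NECs, beside 1.33% for the same 8 markers. Iigp1, at 96.0 CPM, made up most of it, and the immediate early genes were at 11138 CPM in these cells. Salivary markers summed to 139119 CPM in them, against 12553 CPM for epithelial and 737 CPM for milk markers, so they cannot be read as mammary epithelium alone.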

How the results depend on the processing

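No paired analysis was possible because each condition had 1 library and no test was run. The summed GTPase log2 ratio of TECs over NECs, 0.56 as reported, was 0.79 under median scaling, 0.47 under 5% mitochondrial UMIs, 0.66 with thinned cells, 0.63 without the deepest 5% of cells, 1.05 without Iigp1, 0.85 with cells bearing Ptprc, Myh11, Epcam or Cspg4 kept, 1.12 without the high normal clusters and 0.75 without mitotic-like TECs. It turned to -0.16 when the rule on Rhox5, Hmga2 and Krt8 was dropped, which adds 51 of the 184 cells described above. That step also turned Gbp4 (-0.019), Gbp5 (-0.31) and Gbp7 (-0.38) and left 1 member at 2-fold or more in place of 4; other settings gave 4 to 6. Iigp1 turned to 0.86 without the high normal clusters. The Ifit ratio, 0.89 as reported, was 0.81 as a mean over cells and, in the order above, 1.12 under median scaling, 0.75 under the mitochondrial limit, 1.2 with marked cells kept, 0.13 without the tumor rule, 0.77 thinned, 1.56 without high clusters, 1.27 without mitotic-like TECs and 1.75 without Ifit1. The log2 ratio of GTPase to Ifit UMIs, -0.33, was -0.23 as a mean over cells, -0.11 thinned, with an interval that held 0 (-0.28 to 0.07), 0.16 without Iigp1, -1.19 without Ifit1, -0.70 without both, -0.44 without high clusters and -0.51 without mitotic-like TECs. The highest named normal vessel type was capillary-like, at -0.03 against all other NECs. It was venous-like at resolution 0.4 (-0.18) and with 10 components (-0.11), and capillary-like at -0.087 with interferon genes kept, -0.10 thinned, 0.23 without Iigp1 and 0.35 without high clusters. The highest TEC cluster stood at 0.63 over other TECs, at 0.41 with resolution 1.2, 0.53 with 30 components, 0.40 with interferon genes kept, 0.57 thinned or without Iigp1 and 0.45 without mitotic-like cells. The settings without high or mitotic-like clusters or without Ifit1 were chosen after the data had been seen. The cause of other shifts was not tested.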
